A study of Mus musculus with 10 samples.

Results

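Neurexins, neuroligins and leucine-rich repeat transmembrane proteins (LRRTMs) form a system of adhesion molecules that spans the synaptic cleft. The genes Nrxn2, Nrxn3, Nlgn1, Nlgn2, Nlgn3, Lrrtm1, Lrrtm2, Lrrtm3 and Lrrtm4 were taken by symbol from a table of 18216 genes measured in the mouse prefrontal cortex. All 9 were in the table, each in a single row, and all 9 passed the filter on low values and were among the 16781 genes tested.

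Neurexins are presynaptic receptors, and neuroligins and LRRTMs are their postsynaptic ligands. Nlgn1 is known mainly from excitatory synapses and Nlgn2 from inhibitory ones, while Nlgn3 is found at both. LRRTMs bind neurexins at excitatory synapses and help to hold AMPA-type glutamate receptors there.

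The samples were RNA of prefrontal cortex tissue, the medial part per the study's text, from male C57BL/6N mice at postnatal day 10, with 1 library per mouse. One group of 5 mice carried a heterozygous truncating mutation of Arid1b in exon 5 (Arid1b+/-, HT), and the other group of 5 mice was wild type (WT). The allele is constitutive, so it is carried by every cell type, and it comes from 1 CRISPR/Cas9-edited line. The product of Arid1b binds DNA as a subunit of BAF, the mammalian SWI/SNF complex, which repositions nucleosomes. Mice are named HT1 to HT5 and WT1 to WT5 after the replicate numbers in the sample titles, and litters and sequencing batches are not given there.

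The values are estimated counts divided by a size factor per sample, called normalised counts here, so a difference is always one against the rest of the table. Totals of the normalised counts lay between 31106330 and 32106791 per sample, the depth in reads is unknown, and samples correlated at 0.981 to 0.990 across genes. Arid1b itself had 1894 ± 86.6 normalised counts in HT and 2842 ± 142 in WT (SD, n = 5 each). The HT range of 1767 to 1987 lay wholly below the WT range of 2662 to 3018. All 7 cortical excitatory neuron markers were above 0 in every sample, Slc17a7 (the vesicular glutamate transporter of cortex) leading with 37828 to 52447 normalised counts. Striatal markers were present too, with a summed level of 5031 to 15422 in HT and 3843 to 12226 in WT. Of these, 7 of 8 had a higher mean in HT (median log2 fold change 0.54), with 0 at an unadjusted p under 0.05. As a mean z-score over these markers, HT5 (-1.30), WT3 (-1.43) and WT5 (-1.12) were low, and the other mice lay between 0.13 and 1.03.

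The 9 genes lie on 8 chromosomes and differ widely in size (GRCm38, GENCODE M21). Nrxn3 (ENSMUSG00000066392, chr12:88722876-90334935, plus strand) spans 1612.1 kb, Nlgn1 (ENSMUSG00000063887, chr3:25426215-26332460, minus strand) 906.2 kb and Lrrtm4 (ENSMUSG00000052581, chr6:80018877-80810143, plus strand) 791.3 kb. At the other end, Nlgn2 (ENSMUSG00000051790, chr11:69823122-69837784, minus strand) spans 14.7 kb and Lrrtm2 (ENSMUSG00000071862, chr18:35209003-35215024, minus strand) 6.0 kb. Nrxn2 (ENSMUSG00000033768) lies at chr19:6418731-6544169 on the plus strand and Nlgn3 (ENSMUSG00000031302) at chrX:101299168-101325963 on the plus strand.

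Lrrtm1, Lrrtm2 and Lrrtm3 each sit wholly within an alpha-catenin gene on the opposite strand. Lrrtm1 (ENSMUSG00000060780, chr6:77242689-77257791, plus strand) lies within Ctnna2, Lrrtm2 within Ctnna1, and Lrrtm3 (ENSMUSG00000042846, chr10:63928472-64090277, minus strand) within Ctnna3. The library kit marks the strand, but the strand setting of the quantification is not given in the sources used here. Nlgn3 shares 22181 bases of its span with Gm21986, a processed transcript on the same strand with 109 ± 34.1 normalised counts in HT and 141 ± 18.0 in WT, far below the counts of Nlgn3.

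Sequence upstream of the annotated start was available for 6 of the 9 genes, in 10 windows of 250 bases (RefSeq, GRCm38.p6). Nrxn2, Nlgn3 and Lrrtm2 were not matched. One window each of 3 genes is shown because they span the range seen below. By merged exons Nlgn2 had the highest level per kilobase and Lrrtm4 the lowest, and Lrrtm1 had the smallest p for genotype. Capitals mark matches, on either strand, to the motifs searched. These were the MEF2 consensus and the full cAMP response element, which is TGACGTCA. They were also GGGCGG, the GC box bound by SP1-type factors, and the E-box with the letters CAGCTG. The other motifs searched were the TATA box in its form TATAAA and TGACG, the short core of the cAMP response element. Each window is written 5′ to 3′ on the strand of its gene, so capitals show either the motif or its reverse complement.
Nlgn2 (chr11:69837785-69838034, minus strand): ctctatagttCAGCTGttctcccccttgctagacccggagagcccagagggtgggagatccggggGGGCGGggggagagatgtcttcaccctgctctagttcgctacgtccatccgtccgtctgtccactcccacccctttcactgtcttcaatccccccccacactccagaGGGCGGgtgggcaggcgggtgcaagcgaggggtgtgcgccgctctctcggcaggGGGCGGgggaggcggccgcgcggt
Lrrtm1 (chr6:77242227-77242476, plus strand): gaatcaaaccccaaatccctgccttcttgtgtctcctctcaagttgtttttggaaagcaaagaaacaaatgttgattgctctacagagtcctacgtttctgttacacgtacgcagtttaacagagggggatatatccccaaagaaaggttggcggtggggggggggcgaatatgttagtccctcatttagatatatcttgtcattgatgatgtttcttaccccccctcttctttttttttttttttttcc
Lrrtm4 (chr6:80018627-80018876, plus strand): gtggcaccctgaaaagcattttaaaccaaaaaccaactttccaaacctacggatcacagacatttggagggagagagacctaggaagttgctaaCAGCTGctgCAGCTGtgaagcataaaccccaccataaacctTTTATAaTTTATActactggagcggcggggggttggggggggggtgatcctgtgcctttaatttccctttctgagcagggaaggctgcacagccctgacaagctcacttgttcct

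The Nlgn2 window held 3 GC boxes and 1 E-box and had 18 CpG dinucleotides at a GC content of 67.6%. The Lrrtm1 window held none of the motifs and had 5 CpG at a GC content of 42.0%. The Lrrtm4 window shown, the first of its 2, had 3 CpG at 49.2% GC and held an E-box and a TATA box, each more than once. The other Lrrtm4 window (chr6:80019393-80019642, plus strand) had 8 CpG at 54.0% GC and held an E-box and no TATA box. Over the 32851 mouse windows of that length the medians were 6 CpG and 52.4% GC. GC boxes were in 1 of the 10 windows of the 6 genes against 32.7% of all windows, E-boxes in 3 of 10 against 13.0%, and TATA boxes in 1 of 10 against 12.4%. The full cAMP response element and the MEF2 consensus were in 0 of 10, against 1.55% and 0.508% of all windows, and the core TGACG was also in 0 of 10, against 17.8%. A match is a run of letters only, and no match says only that the letters are not in these windows.

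Levels were compared between genes as normalised counts per kilobase of merged exons, averaged over the 10 mice. Nlgn2 had the highest level at 1801 ± 91.4 (SD), followed by Nrxn2 at 1379 ± 87.3. A middle group held Lrrtm1 at 605 ± 50.4, Nrxn3 at 568 ± 44.6, Nlgn3 at 537 ± 35.0 and Lrrtm2 at 448 ± 41.7. The lowest levels were those of Lrrtm3 at 264.5 ± 37.8, Nlgn1 at 237 ± 23.6 and Lrrtm4 at 174 ± 14.2, so that the order spanned a factor of 10.3. The neuroligin of inhibitory synapses led the order and that of excitatory synapses stood near its end.

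Only the gaps after Nlgn2, after Nrxn2 and between Lrrtm2 and Lrrtm3 were free of overlap over the 10 mice. The other neighbours in the order overlapped in range, although Nlgn3 was above Lrrtm2 and Nlgn1 above Lrrtm4 within all 10 mice, Lrrtm1 above Nrxn3 within 9, and Nrxn3 above Nlgn3 and Lrrtm3 above Nlgn1 within 8. The order depended on the length used. With the longest coding transcript in place of merged exons, Nrxn2 led at 2858 and Nlgn2 followed at 1871 normalised counts per kilobase, and Nrxn3 at 904 stood above Lrrtm1 at 723. With the principal transcript Lrrtm4 was at 353 and 7th in the order, and Nlgn1 was the lowest.

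**Figure D1:**
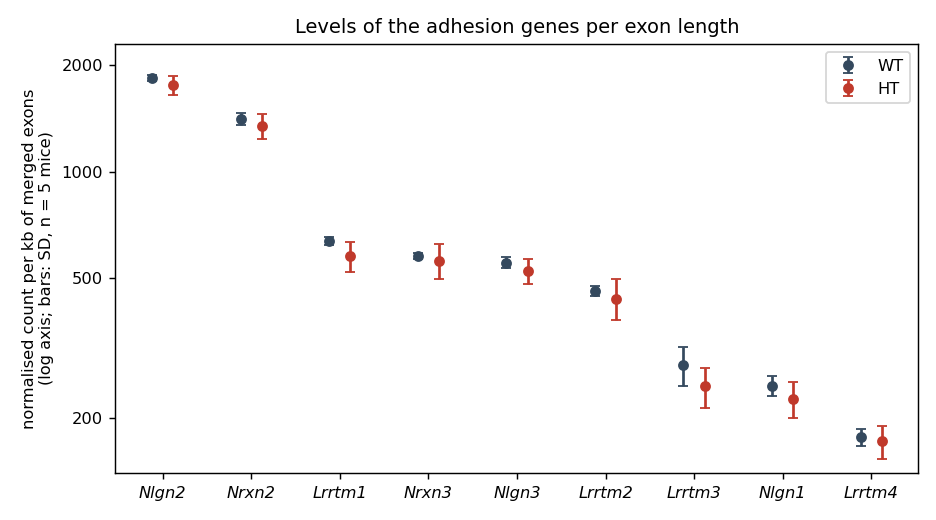
Normalised counts per kilobase of merged exons (log axis) for the 9 genes in order of their mean over all mice, with points for the mean and bars for the SD of 5 WT and 5 HT mice. Nlgn2 and Nrxn2 stand apart at the top, and Lrrtm3, Nlgn1 and Lrrtm4 are the 3 lowest in both genotypes.

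The paired levels of related genes were then read within each mouse, as log2 ratios of the levels per kilobase. The ratio of Nlgn1 to Nlgn2 was -2.96 ± 0.16 in HT (range -3.13 to -2.79) and -2.90 ± 0.08 in WT (range -2.96 to -2.76). Nlgn3 to Nlgn2 gave -1.75 ± 0.09 in HT and -1.74 ± 0.05 in WT, and Nrxn3 to Nrxn2 gave -1.27 ± 0.14 and -1.29 ± 0.07 (SD, n = 5 each). The genotype means of the 3 ratios differed by -0.06, -0.0095 and 0.01 on the log2 scale, less than 1 SD of either group. With 1 mouse left out, the difference ran from -0.10 to -0.016 for Nlgn1 to Nlgn2, from -0.035 to 0.015 for Nlgn3 to Nlgn2 and from -0.038 to 0.048 for Nrxn3 to Nrxn2, so the sign of the last pair of ratios depended on single mice. Without HT2 and HT5 the differences were 0.050, 0.051 and 0.085.

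The comparison of HT with WT asked how the transcriptome of the cortex differed at this age. None of the 9 adhesion genes passed the test (limma, Benjamini-Hochberg adjusted p under 0.05). Their HT means were 87.0% to 97.5% of the WT means, and the median log2 fold change (HT minus WT, on log2(value + 1)) was -0.08. All 9 had a lower mean in HT, where 51.2% of the 16781 genes tested had a fold change below 0. The median over those genes was -0.0035, and among the 6145 genes whose mean reached 1000 normalised counts, as that of all 9 members did, 62.2% were lower in HT with a median of -0.02. Of all genes tested, 3 (0.0179%) passed the adjusted threshold, and the 1 of them that was lower in HT (0.00596%) was Arid1b itself, at -0.59 (SE 0.05, limma adjusted p = 9.96e-05).

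Without adjustment, 1 of the 9 genes had a p under 0.05, compared with 1549 of all genes tested (9.23%), of which 758 (4.52%) were lower and 791 (4.71%) higher in HT. In 0 of the 9 did the HT and WT values fail to overlap, compared with 272 of all genes tested (1.62%). The 95% interval of the fold change included 0 for 8 of the 9. The members are 9 genes measured in the same mice, so their shared sign is not 9 separate observations.

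**Figure D2:**
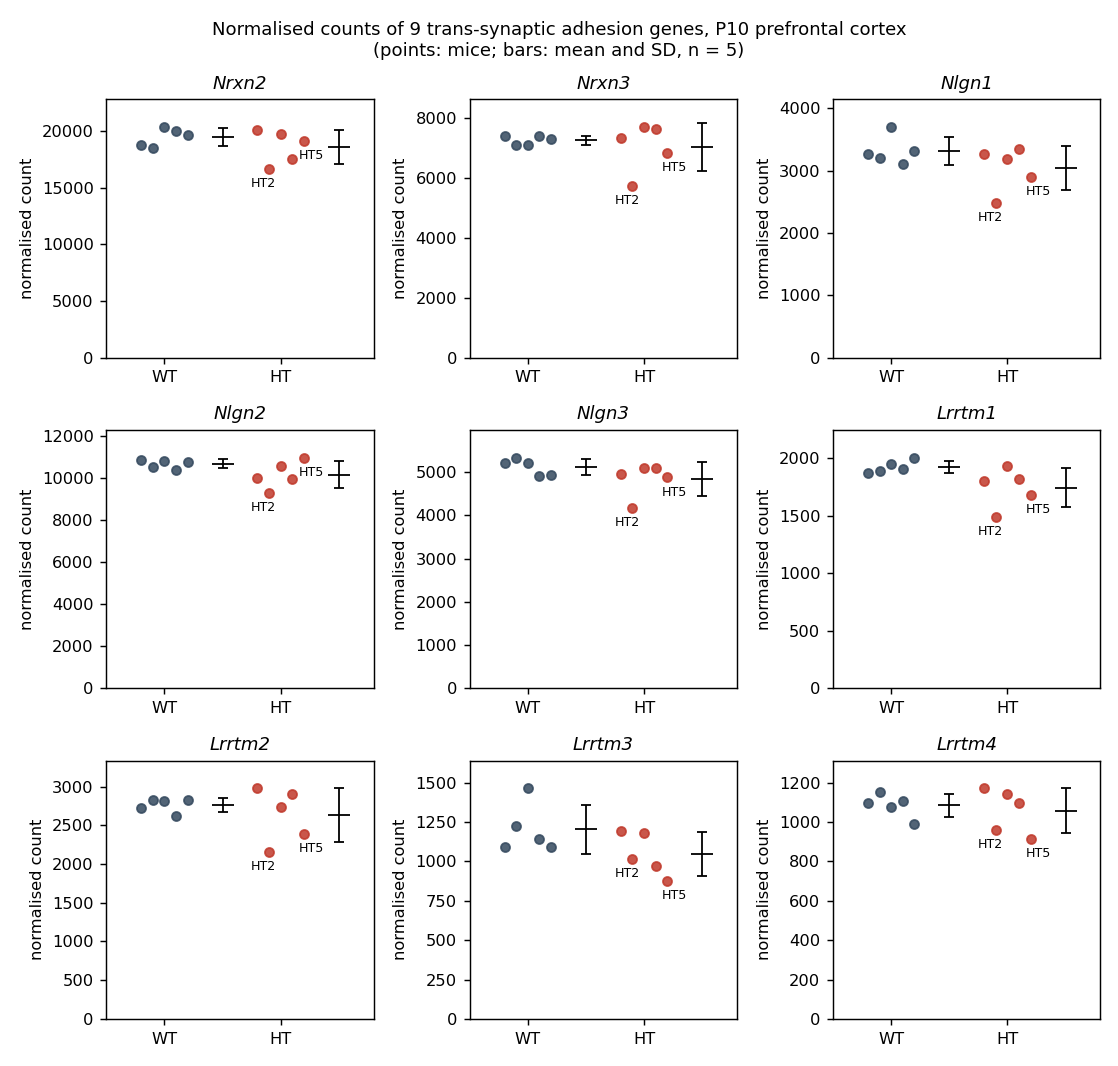
Normalised counts (axes from 0) of the 9 adhesion genes, with a point for each of 5 WT and 5 HT mice and bars for the mean and SD of each group. The groups overlap in every panel, and HT2 is the lowest of the 10 mice in 7 panels and HT5 in those of Lrrtm3 and Lrrtm4.

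Among the presynaptic receptors, Nrxn2 gave 20128, 16660, 19737, 17503 and 19122 normalised counts in HT1 to HT5, and 18802, 18536, 20347, 20030 and 19661 in WT1 to WT5. HT2 and HT4 lay below every WT mouse, and the other HT mice lay within the WT range. The log2 fold change of Nrxn2 was -0.07 (SE 0.06, 95% interval -0.19 to 0.06, limma adjusted p = 0.71).

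Nrxn3 gave 7331, 5734, 7709, 7645 and 6841 in HT1 to HT5, and 7407, 7125, 7101, 7399 and 7319 in WT1 to WT5. HT values lay on both sides of the narrow WT range, with HT2 and HT5 below it and HT3 and HT4 above it. The SD of 813 in HT stood against 148 in WT, and the log2 fold change was -0.05 (SE 0.07, interval -0.20 to 0.10, limma adjusted p = 0.82). The values are sums over all transcripts of a gene, so the long alpha and short beta neurexins, which start from separate promoters, are not told apart.

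Nlgn1, the neuroligin known from excitatory synapses, gave 3274, 2486, 3190, 3347 and 2900 in the HT mice and 3275, 3205, 3699, 3107 and 3322 in the WT mice. HT2 and HT5 lay below all WT mice, and WT3 was the highest of the 10. The log2 fold change was -0.13 (SE 0.08, interval -0.30 to 0.03, limma adjusted p = 0.59).

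For Nlgn2, which organises inhibitory synapses together with gephyrin, HT1 to HT5 gave 10007, 9274, 10567, 9965 and 10963, and WT1 to WT5 gave 10872, 10521, 10830, 10402 and 10777. Here HT1, HT2 and HT4 were below the WT range while HT5, low for most of the other members, was the highest of the 10 mice. The log2 fold change of Nlgn2 was -0.07 (SE 0.05, interval -0.18 to 0.03, limma adjusted p = 0.61).

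Nlgn3, an X-linked gene expressed from 1 copy in these males, gave 4964, 4169, 5107, 5092 and 4879 in HT and 5217, 5337, 5224, 4905 and 4931 in WT. HT2 stood alone at the bottom, HT5 was just under the lowest WT value, and the other HT mice lay within the WT range. The log2 fold change was -0.08 (SE 0.06, interval -0.21 to 0.04, limma adjusted p = 0.63).

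Lrrtm1 was the member with the smallest p. Its values were 1804, 1487, 1936, 1817 and 1680 in HT1 to HT5, and 1875, 1890, 1953, 1911 and 2006 in WT1 to WT5. HT1, HT2, HT4 and HT5 were below the WT range and HT3 was within it. The HT mean of 1745 ± 170 was 90.5% of the WT mean of 1927 ± 52.9, with a log2 fold change of -0.15 (SE 0.06, interval -0.28 to -0.01), an unadjusted p of 0.0337 and a limma adjusted p of 0.51. Without HT2 the fold change of Lrrtm1 was -0.09 and the unadjusted p 0.0749, and the p was also over 0.05 without HT5 (0.0690), WT3 (0.0597) or WT5 (0.0738), with sample weights (0.0674) and with no variance trend (0.0579). With a score of neuronal markers as a covariate Lrrtm1 was at -0.06 (unadjusted p 0.200), and with a score of astrocyte markers at -0.0098 (unadjusted p 0.874). HT2 was at an extreme of both scores, as described below, so these fits cannot separate genotype from the markers.

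Lrrtm2 gave 2978, 2152, 2733, 2901 and 2388 in HT and 2729, 2826, 2818, 2618 and 2825 in WT. HT1 and HT4 were above the WT range and HT2 and HT5 below it, so that the SD of the HT mice was 351 and that of the WT mice 90.6. For this gene the log2 fold change was -0.08 (SE 0.08, interval -0.25 to 0.09, limma adjusted p = 0.73).

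Lrrtm3 had the lowest HT mean relative to WT, at 87.0%. Its values were 1194, 1012, 1179, 970 and 876 in HT1 to HT5, and 1091, 1221, 1464, 1143 and 1093 in WT1 to WT5. HT2, HT4 and HT5 were below the WT range, and WT3 was the highest of the 10 mice. Lrrtm3 was the only member whose SD was larger in WT (156) than in HT (137). The log2 fold change was -0.20 (SE 0.10, interval -0.41 to 0.01), with an unadjusted p of 0.0591 and a limma adjusted p of 0.55.

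Lrrtm4, which also binds heparan sulphate proteoglycans, gave 1172, 959, 1144, 1096 and 913 in HT and 1095, 1150, 1079, 1108 and 990 in WT. HT2 and HT5 were below the WT range and HT1 above it. In this fit the fold change was the smallest of the 9, at -0.04 (SE 0.07, interval -0.20 to 0.12, limma adjusted p = 0.86). With a score of striatal markers as a covariate Lrrtm4 was at -0.088 (unadjusted p 0.177), and without HT5 at 0.0084.

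The HT mice differed among themselves. Relative to the WT mean of each gene on the log2 scale, the median over the 9 genes was -0.30 in HT2 (range -0.42 to -0.18) and -0.19 in HT5 (range -0.45 to 0.04). It was -0.00075 in HT1, -0.0035 in HT3 and -0.0078 in HT4, within the span of -0.04 to 0.03 of the 5 WT mice. HT2 was below the WT range for 9 of 9 genes, HT5 for 7, HT4 for 4, HT1 for 2 and HT3 for 0.

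**Figure D3:**
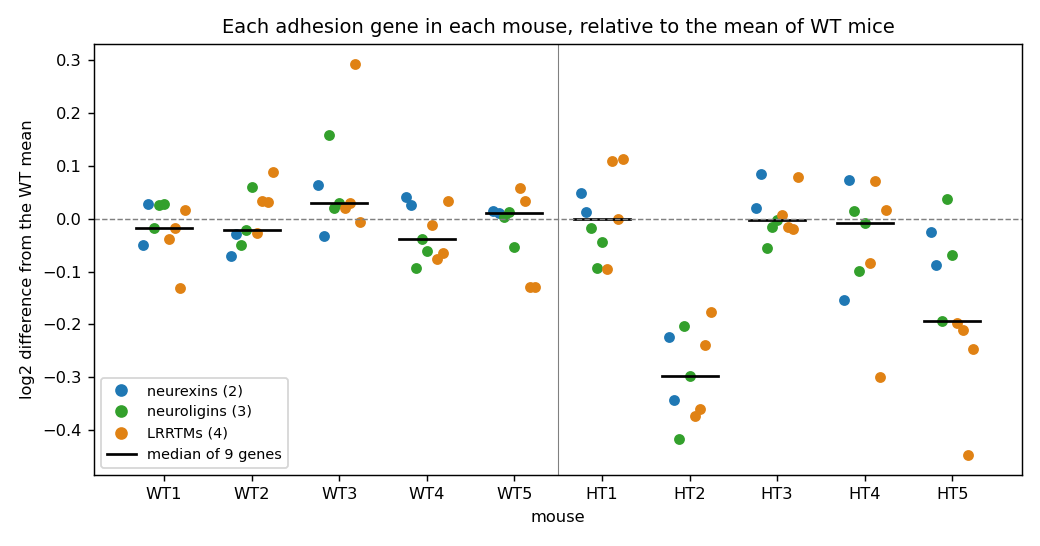
Log2 difference of each adhesion gene from its WT mean (vertical axis) in each of the 10 mice, coloured by family, with a bar for the median of the 9 genes. The medians of HT2 (-0.30) and HT5 (-0.19) lie below those of the other 8 mice, which are between -0.04 and 0.03.

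Without HT2 the median log2 fold change of the 9 genes was -0.03, 8 of 9 were lower in HT and Nrxn3 was at 0.021. In that fit 0 of the 9 had an unadjusted p under 0.05, beside 7.18% of all genes tested. Without HT2, Nlgn1 was at -0.063, Nrxn2 at -0.027, Nlgn3 at -0.031, Lrrtm2 at -0.011 and Lrrtm4 at -0.0091. Lrrtm3 was at -0.19 (unadjusted p 0.0938) without HT2, at -0.14 without HT5 and at -0.13 without WT3, and with the astrocyte marker score it was at -0.00071 (unadjusted p 0.994). HT2 and HT5 had the lowest medians over the 9 genes, so leaving both out raises the median fold change by the choice of mice. Without both HT2 and HT5 the median was -0.02, and Nrxn3, Lrrtm2 and Lrrtm4 were at 0.057, 0.055 and 0.070. The most negative member was again Lrrtm3, at -0.11. In that setting Nlgn2 was at -0.07 (unadjusted p 0.0979) and Lrrtm1 at -0.06. Nlgn2 also depended on single mice, at -0.043 (unadjusted p 0.291) without HT2 alone and -0.10 (unadjusted p 0.0498) without HT5 alone. For Nlgn2 the low mice were HT1, HT2 and HT4, and for Nrxn2 they were HT2 and HT4.

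The spread between mice was itself uneven between genotypes. The SD was larger in HT than in WT for 8 of the 9 genes, and for 7 of 9 without HT2. As a percentage of the mean, the SD was 6.34% to 13.3% in HT and 1.94% to 12.9% in WT, where the upper end was Lrrtm3. This difference in spread was not tested.

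HT2 also stood apart in markers of cell types. The summed level of 7 neuronal markers was 168049 normalised counts in HT2, below the 197700 to 210316 of the other HT mice and the 200628 to 218331 of WT, and 5 of the 7 had a lower mean in HT, 2 of them at an unadjusted p under 0.05. The sum of 7 cortical excitatory neuron markers was 53797 in HT2, the lowest of the 10 mice, against 60093 to 74386 in WT, and again 5 of 7 were lower in HT, 2 at an unadjusted p under 0.05. GABAergic markers had sums of 18248 to 19763 in HT, with HT2 at the upper end, and 17593 to 20570 in WT, and 6 of the 7 had a higher mean in HT, 1 at an unadjusted p under 0.05. Of all genes tested, 9.23% had an unadjusted p under 0.05 and 51.2% had a fold change below 0. Among those with a mean of 1000 or more, 62.2% were lower in HT.

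The summed level of 7 astrocyte markers was 161612 to 204092 in HT and 146692 to 173214 in WT, with HT2 the highest of all mice. As a mean z-score over these markers, HT2 was at 1.61 and HT5 at 1.36, and the other 8 mice lay between -1.06 and 0.49. All 7 astrocyte markers had a higher mean in HT, 5 at an unadjusted p under 0.05 and 0 after adjustment, with a median log2 fold change of 0.23. The 7 microglial markers were also all higher in HT, at sums of 7824 to 10974 against 7568 to 8781 in WT, 2 of them at an unadjusted p under 0.05, and no marker of any of these lists was at 0 in a sample. Endothelial markers summed to 10401 in HT2 and 7334 to 8896 in the other HT mice, with 0 of 7 at an unadjusted p under 0.05. All 7 oligodendrocyte lineage markers had a higher HT mean (median log2 fold change 0.16), 0 of them at an unadjusted p under 0.05, and WT3 had the lowest score of the 10 mice, at -2.10. Of 7 olfactory bulb markers, 6 had a higher HT mean (median log2 fold change 0.34), 0 at an unadjusted p under 0.05. Their sum was 7961 in HT2, 5382 to 6588 in the other HT mice and 5012 to 8010 in WT.

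With a score of the neuronal markers as a covariate in the fit, the median log2 fold change of the adhesion genes was -0.01 and 6 of 9 were below 0. With the astrocyte score it was 0.03 and 4 of 9 were below 0. That score was highest in HT2 (1.61) and HT5 (1.36), and all 7 of its markers had a higher mean in HT. A fit with it therefore takes out part of any genotype difference and cannot separate genotype from the score, here and for the single genes. With a score of the striatal markers the median of the adhesion genes was -0.09 and 9 of 9 were below 0. In that fit 1 had an unadjusted p under 0.05, beside 9.83% of all genes tested. In bulk tissue, fewer cells of a type and less RNA per cell cannot be told apart, and the part of these markers in the values of the adhesion genes was not tested beyond these fits.

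**Figure D4:**
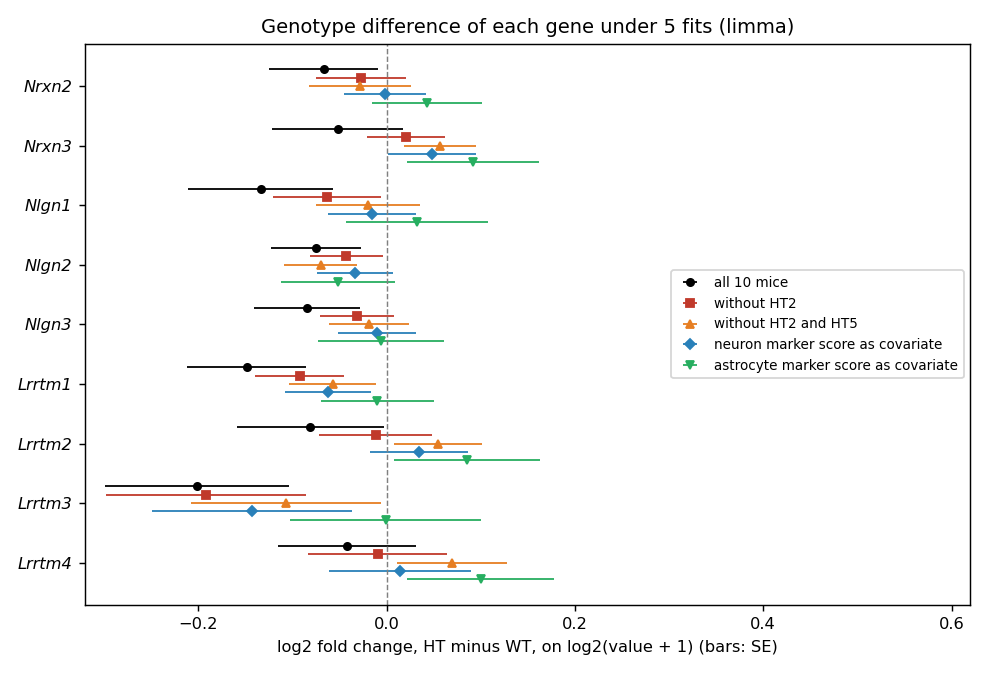
Log2 fold change (HT minus WT, on log2(value + 1); bars are SE) of each adhesion gene in all 10 mice, without HT2, without HT2 and HT5, and with a neuron or astrocyte marker score as a covariate. The black points of all 10 mice are left of 0 for all 9 genes, and with the astrocyte score 5 of 9 are to the right of 0. HT2 and HT5 are the mice with the lowest medians of these genes and the highest astrocyte scores.

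How the members varied together was described by the correlation of log2 values after each genotype mean was subtracted, over the 10 mice. Of the 36 pairs, 34 were positive, with a median of 0.57. The closest pairs were Nrxn3 with Lrrtm1 (0.924) and Nlgn1 with Lrrtm2 (0.893), and the farthest was Nlgn2 with Lrrtm4 (-0.11). Without HT2 26 of 36 were positive, the median was 0.34 and the range ran from -0.72 for Nlgn2 with Lrrtm2 to 0.73 for Nlgn1 with Lrrtm2. The pairs share mice, libraries and size factors, and the values carry no test.

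By the same measure, the genes most like each member among 12620 genes with a mean of at least 100 were as follows. Nrxn2 was closest to Agbl4 (0.979) and Ppp1r13b (0.954), and Nrxn3 to Gsk3b (0.977), a serine/threonine kinase, and Naa50 (0.975). For the neuroligins these were Abhd13 (0.983) and Agfg1 (0.982) for Nlgn1, Akr1a1 (0.957) and Eif3m (0.954) for Nlgn2, and Atp8a2 (0.980) and Uxs1 (0.976) for Nlgn3. For the LRRTMs they were Pdpk1 (0.979) and Aasdhppt (0.970) for Lrrtm1, Blzf1 (0.977) and Eif4a2 (0.975) for Lrrtm2, Aven (0.938) and Samm50 (0.918) for Lrrtm3, and Nrg1 (0.945) and Gm49359 (0.942) for Lrrtm4. Without HT2 and HT5, 0 of these 18 genes were again the closest to their member, and no other pair of mice was left out.

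The other genes of trans-synaptic adhesion were examined in lists of 60 genes, all of which passed the filter. None passed the adjusted threshold (limma), 42 of 60 (70.0%) were lower in HT, beside 51.2% of all genes tested and 62.2% of those with a mean of 1000 or more, and the median log2 fold change was -0.03. Without adjustment, 6 lower genes and 1 higher gene of the 60 had a p under 0.05, beside 9.23% of all genes tested (4.52% lower, 4.71% higher).

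Ligands of neurexins other than neuroligins and LRRTMs (cerebellins, neurexophilins, dystroglycan and others) were evenly split, with 8 higher and 9 lower of 17 and a median of -0.0032. The smallest p among them was that of Dag1, dystroglycan, at a log2 fold change of 0.08 (unadjusted p 0.0948), or 0.050 without WT5. Of 11 regulators and scaffolds of neuroligins, such as the MDGA proteins, gephyrin and PSD-95 relatives, 8 were lower, with a median of -0.03. Magi2, a scaffold that binds neuroligins, had the smallest p there, at -0.16 (SE 0.08, unadjusted p 0.0646), with 2788 normalised counts in HT2 against 3525 to 3930 in the other HT mice. Without HT2 the fold change of Magi2 was -0.072 (unadjusted p 0.121), and without HT2 and HT5 it was -0.041.

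All 7 scaffolds that bind neurexins inside the presynaptic terminal had lower means in HT, with a median of -0.07. Of these, Lin7a and Lin7c, partners of CASK, had an unadjusted p under 0.05. Lin7a gave 896, 727, 885, 941 and 751 in HT1 to HT5 and 976, 1042, 1071, 818 and 951 in WT1 to WT5, a log2 fold change of -0.21 (SE 0.09, unadjusted p 0.0313). Lin7c was at -0.13 (SE 0.06, unadjusted p 0.0394), and with 1 mouse left out their p-values reached 0.0825 (Lin7a, without HT2) and 0.110 (Lin7c, without WT4). Lin7a was also over 0.05 without HT5, WT1, WT2 or WT3, and Lin7c without HT2, HT3, HT5 or WT3. With the astrocyte score, Lin7a was at -0.09 (unadjusted p 0.431) and Lin7c at -0.05 (0.462). Of 6 RNA-binding proteins that act in neurexin splicing, 4 were lower, with a median of -0.0083, and the smallest p was that of Nova1, at 0.08 (unadjusted p 0.232), which ran from 0.041 without WT2 to 0.13 (unadjusted p 0.0288) without WT4.

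The LAR-type receptor phosphatases, which are presynaptic like the neurexins, and their postsynaptic ligands made up a list of 16 genes, of which 12 were lower in HT, with a median of -0.07. Of the 16, 4 were lower at an unadjusted p under 0.05, beside 4.52% of all genes tested. Ptprf, which encodes LAR itself, gave 4720, 4002, 5300, 4603 and 4611 in HT and 5883, 5387, 5984, 5047 and 5288 in WT. All HT mice but HT3 were below the WT range, and the log2 fold change was -0.25 (SE 0.07, unadjusted p 0.0030, limma adjusted p = 0.41). Ptprs, a second phosphatase of the type, was at -0.11 (unadjusted p 0.0237), Slitrk4 at -0.23 (0.0187) and Il1rapl1 at -0.16 (0.0323), Slitrk4 and Il1rapl1 being postsynaptic ligands. With any 1 mouse left out, the unadjusted p reached at most 0.0098 for Ptprf and 0.0445 for Slitrk4, although Slitrk4 was at -0.15 without HT5 and at -0.11 (unadjusted p 0.131) without HT2 and HT5. It reached 0.0650 for Ptprs, which was over 0.05 without HT5, WT1 or WT3, and 0.0911 for Il1rapl1, which was over 0.05 without HT2, HT5, WT3 or WT4. With the astrocyte score as a covariate, the log2 fold changes were -0.13 for Ptprf (unadjusted p 0.123), -0.05 for Ptprs (0.314), -0.10 for Slitrk4 (0.335) and -0.0086 for Il1rapl1 (0.894).

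The alpha-catenin genes that host 3 of the LRRTMs were examined because they overlap these members on the opposite strand. Ctnna1, host of Lrrtm2, gave 1489, 1665, 1482, 1530 and 1592 in HT and 1519, 1449, 1220, 1407 and 1269 in WT, with HT2 the highest and WT3 the lowest of the 10 mice. The log2 fold change of Ctnna1 was 0.18 (SE 0.06, unadjusted p 0.0139, limma adjusted p = 0.48), where that of Lrrtm2 was -0.08. With the astrocyte score Ctnna1 was at 0.07 (unadjusted p 0.352) and Lrrtm2 at 0.086, and with the neuron score they were at 0.12 (unadjusted p 0.0717) and 0.035. Without HT2 and HT5 Ctnna1 was at 0.13 (unadjusted p 0.0856). Ctnna2, host of Lrrtm1, was at -0.02, and Ctnna3, host of Lrrtm3, at -0.20.

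**Figure D5:**
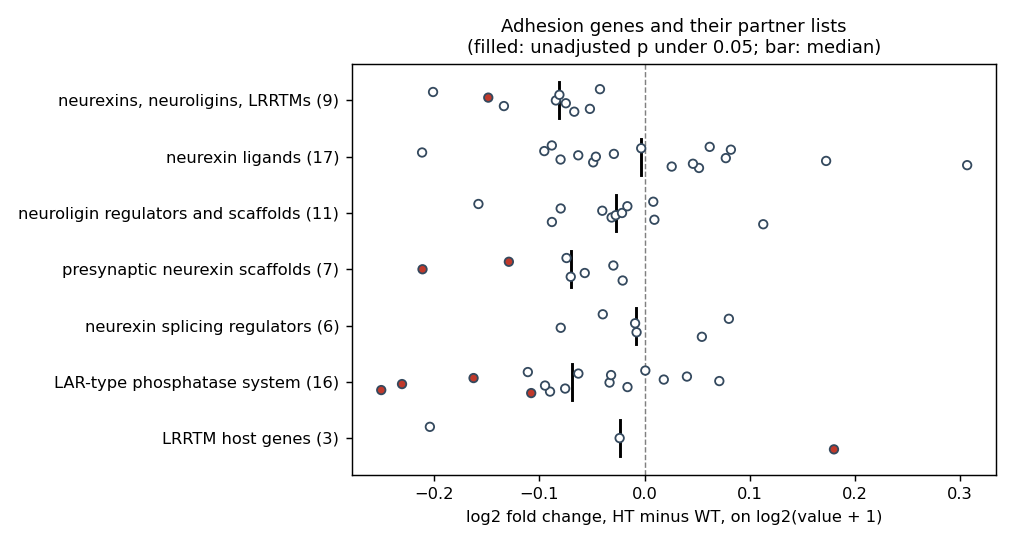
Log2 fold change (HT minus WT) of each gene in the 9 adhesion genes and in 6 lists of related genes, with the number of genes in brackets, a bar for the median and filled points for an unadjusted p under 0.05. Medians lie between -0.08 and -0.0032, and the filled points are 7 lower genes, Lrrtm1 among them, and Ctnna1.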

How the data were processed

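Poly-A RNA of 10 mice (5 HT, 5 WT) was sequenced in paired ends from strand-marked libraries. As described by the authors, transcripts were quantified with Salmon 1.1.0 against GRCm38 with correction for GC bias and summed to genes with tximport. The deposited signal is the authors' estimated count per gene divided by a DESeq2 1.30.1 size factor. Between 6.36% and 23.6% of values under 15 were whole multiples of 1 step per sample (tolerance 0.02 of a step), so no reads were recovered and no count test was run. The lowest row total was 41.7, from a filter that is not stated.

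Symbols came from GENCODE M21 (18205 of 18216 identifiers). Values were taken as log2(value + 1), and genes with a mean of at least 10 were tested in R 4.3.3 with limma 3.58.1 (lmFit, eBayes with a mean-variance trend, genotype only), with Benjamini-Hochberg adjustment and a threshold of 0.05. P-values measure the spread between mice.

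The members and gene lists were chosen with earlier results of these data known. Named genes were the 9 members, Arid1b, in each list those with an unadjusted p under 0.05 or else the smallest p, and the 2 genes most like each member. Car10 and Car11 stand for Ca10 and Ca11. Choroid plexus markers, 3 of 6 in the table, were not used. The alternatives tried were other pseudocounts (0.5, 10), other filters (none, a mean of 50), upper-quartile and quantile rescaling, no trend, sample weights and a replicate block. Each mouse was also left out, as were HT2 and HT5 together, the mice with the lowest medians of the members. Other transcript lengths and marker scores as covariates were used too. Descriptions and figures used pandas 2.3.3, numpy 2.4.6 and matplotlib 3.10.9 in Python 3.11.15.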

Additional observations from a re-analysis of the deposited data

Results flagged for a closer look

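Within-group outliers were sought for 24 groups of 5 mice (the 9 members and the 3 log2 ratios between them, in each genotype) with Dixon's ratio, for which chance alone gives about 1 in 20, and 2 passed the critical value of 0.71. The Nlgn3 normalised count of HT2, 4169, lay below the 4879 to 5107 of the other HT mice (ratio 0.757). The log2 ratio of Nlgn1 to Nlgn2 in WT3, -2.76, lay above the -2.96 to -2.91 of the other WT mice (ratio 0.766).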

How the results depend on the processing

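No member passed the adjusted threshold under any of 24 alternatives of the fit, with adjusted p-values from 0.392 to 0.999. In these fits 0 to 2 of the 9 members had an unadjusted p under 0.05, beside 4.95% to 10.9% of all genes tested. With each mouse left out in turn, 0 members and 0 partner genes passed, and 3 to 4 of all genes. Arid1b stayed between -0.61 and -0.54 on the log2 scale under all of them. Of 216 member values, 202 kept their direction and 14 turned positive. Without HT2 and HT5, the mice with the lowest medians, Nrxn3 was at 0.057, Lrrtm2 at 0.055 and Lrrtm4 at 0.070. With the neuron score these genes were at 0.048, 0.035 and 0.014, and with the astrocyte score at 0.092, 0.086 and 0.10. Nrxn3 was at 0.0018 with sample weights, and single mice left out gave -0.086 to 0.021 for Nrxn3 (highest without HT2) and -0.081 to 0.0084 for Lrrtm4 (highest without HT5). With the astrocyte score Nrxn2 was at 0.043, Nlgn1 at 0.032 and, in an alternative added after the data were seen, Magi2 at 0.0022. The cause was not tested. Left out in turn, single mice gave 0 to 2 members with an unadjusted p under 0.05 (0 without HT2 and without WT3), beside 6.46% to 10.9% of all genes tested.

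With the replicate number as a block, 0 members and 3 of all genes passed. In that fit 2 of the 9 members had an unadjusted p under 0.05 (Lrrtm1 and Lrrtm3), beside 8.99% of all genes tested. Same-numbered mice had correlations of -0.041 to 0.101 in their deviations, which did not exceed 0.1 in every pair, and the titles tie the numbers to no litter or batch, so the mice were not taken as paired. That 5 of 10 mice correlated best with their own number is a hint from the data, not from the design.

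With the longest coding transcript as length, the WT log2 ratios were -2.77 for Nlgn1 to Nlgn2, -1.68 for Nlgn3 to Nlgn2 and -1.67 for Nrxn3 to Nrxn2 (-2.90, -1.74 and -1.29 with merged exons), and 5 of 9 members kept their place in the order, as did 2 of 9 with the principal transcript. Of the 18 genes most like a member, 11 were chosen again from deviations around the mean of all mice and 0 without HT2 and HT5. Depth in reads is unknown, and with 5 mice per genotype the 95% intervals reach as low as -0.41 on the log2 scale.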
